A study of Danio rerio with 4 samples.

Results

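Transcription factors and co-activators that pattern the embryo fall into families, and 10 genes of such families are described here in cells sorted from zebrafish heads by an *apln* reporter. They are genes among the 756 of the deposited table whose symbol starts with the name of a forkhead, Sox, Hox, T-box, Pax, LIM homeodomain, Hand, Grainyhead-like, Eya, Tcf or similar family, with *foxc1a*, *six1a*, *zic4* and *sox10* left out. In Venus positive, mCherry negative cells 5 of them were higher than in double negative cells (*eya2*, *foxp4*, *foxa1*, *foxo1a* and *tcf12*) and 5 were lower (*foxn4*, *lhx5*, *lhx2b*, *hand2* and *grhl1*), with the size factors of the authors. Scaled over the listed genes alone, which places the middle of a list of mostly higher genes at no change, *foxo1a* and *tcf12* changed sign. With all libraries the largest increase was in *eya2*, whose group mean was 4.78 times that of double negative cells. Without Venus positive library 3 its log2 fold change was 1.295, below those of *foxa1* (2.09), *foxp4* (1.52) and *foxo1a* (1.45). The largest decrease was in *grhl1*, with 3 reads in the Venus positive libraries against 113 in the double negative libraries. Without Venus positive library 4, *hand2* (-6.12) had a larger decrease than *grhl1* (-5.24).

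The cells came from dissected heads of wildtype larvae at 48 hpf (hours post fertilization) that all carried 2 transgenes. TgBAC(apln:Venus-PEST) expresses a short-lived Venus under *apln* regulatory sequence on a bacterial artificial chromosome. Tg(kdrl:Hsa.HRAS-mCherry) expresses membrane mCherry under the promoter of the endothelial receptor gene *kdrl*. Bulk RNA-seq with the Smart-seq2 method, which amplifies full-length cDNA without molecular identifiers, gave 2 libraries from each of 2 gates: Venus positive, mCherry negative cells, and double negative cells. The labels describe each group as mixed cell types. Cells with mCherry enter neither gate. The study profiled the groups to learn what kind of cell expresses *apln*. The Venus positive libraries are called 3 and 4, as in the table.

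Background on these genes helps to read the values. Forkhead proteins (Fox) bind DNA through a winged helix, LIM homeodomain proteins (Lhx) through a homeodomain, Hand and Tcf12 proteins through a basic helix-loop-helix (bHLH) domain, and Grainyhead-like proteins through a domain of their own. Eya proteins do not bind DNA themselves and act as co-activators of homeodomain proteins such as the product of *six1a*. In the head, genes of these families are known for roles in cranial mesenchyme, the eye, the forebrain, the pharyngeal arches and the epidermis.

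Each value below is a normalized read count, the estimated count of a gene divided by a size factor for the library, and is not corrected for gene length. The log2 fold changes, with standard errors, and the adjusted p-values come from the quasi-likelihood test of edgeR, adjusted by Benjamini-Hochberg over the 754 genes that reached 10 counts in 2 or more of the 4 libraries. All 10 genes passed this filter, *grhl1* through the double negative libraries alone. The rows of the table are genes that the authors had already called in this same contrast, so the test is a description here: it called 100% of the 754 genes, 64.2% as higher and 35.8% as lower. The libraries of the 2 groups likewise did not overlap for 100% of the 756 genes. A gap between the groups wider than both differences within groups was found for 83.4% of the 639 listed genes with reads in all libraries. Nothing is read from a call, from non-overlapping groups or from such a gap, and p-values of genes selected in this way can be too small. With 2 libraries a group, the smallest p that exact permutation allows is 0.333. Whether replicate libraries stem from different clutches or from repeated sorting is not in the labels, so the spread behind each p-value is that of these libraries alone and may be technical.

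The split of the 10 genes, 50% higher and 50% lower, lay beside 64.2% higher and 35.8% lower over the whole table. In the median, their changes were smaller than those of the table as a whole in both directions. The 5 higher genes had a median log2 fold change of 1.89 (range 1.45 to 2.26), against a median of 2.39 over the 485 higher genes of the table. The 5 lower genes had a median of -1.66 (range -4.98 to -1.44), against -4.70 over the 271 lower genes. All 5 had reads in both Venus positive libraries, but only 168 of the 271 did. Genes at 0 in both, such as *gata1a* (-9.83), enter this median and the ranks, so the 2 sets are not fully alike. Ordered by size, *eya2* came 265th among the higher genes and *tcf12* 475th, while *grhl1* came 131st among the lower genes and *foxn4* 266th.

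**Figure D1:**
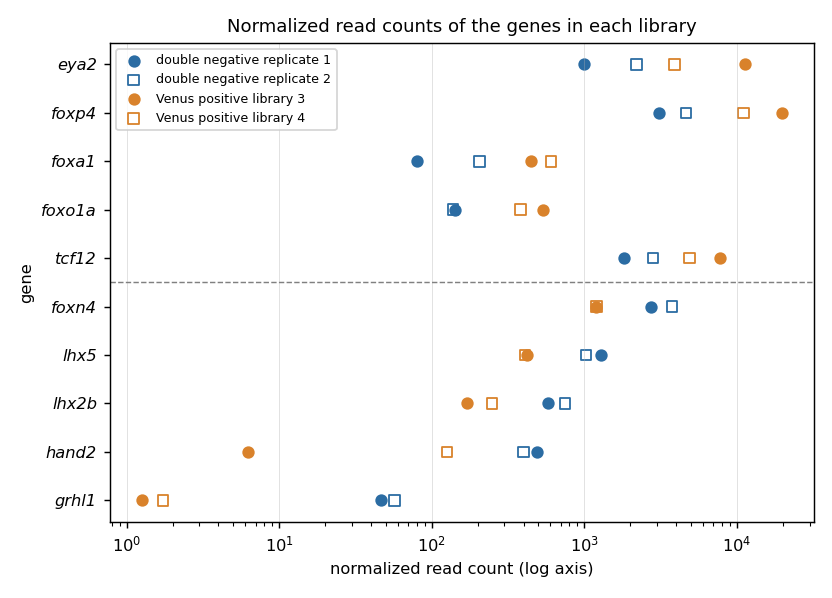
Normalized read counts (log axis) of the 10 genes in each of the 4 libraries, ordered by log2 fold change, with the higher genes above the dashed line. Blue marks the double negative replicates and orange the Venus positive libraries. For *hand2* Venus positive library 3 stands at 6.28, far below library 4 at 126, whereas the orange points of *foxn4* (1199 and 1208) lie on each other.

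Of the genes that were higher, *eya2* (NCBI gene 447819) encodes a co-activator with phosphatase activity that partners *six1a*-type homeodomain proteins in cranial placodes and muscle precursors. It had 993 and 2202 normalized read counts in double negative replicates 1 and 2, and 11360.4 and 3920 in Venus positive libraries 3 and 4. Each group spread widely: the double negative replicates differed 2.22-fold and the Venus positive libraries 2.90-fold, and the gap between the nearest libraries of the 2 groups (0.83 on the log2 scale) was narrower than the difference within the Venus positive group (1.54). The log2 fold change was 2.26 (standard error 0.56, adjusted p = 0.00159 from edgeR). It was 1.295 without Venus positive library 3 and 2.94 without double negative replicate 2. Without library 3 the increase was smaller than those of *foxa1*, *foxp4* and *foxo1a*. A gene of this kind left out by the name rule, *six1a*, had 518 and 568 normalized read counts in double negative cells and 1864 and 1733 in Venus positive cells.

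Next in size was *foxp4* (557245), a forkhead protein of the FoxP group, which act mainly as repressors. It had 3081 and 4647 normalized read counts in double negative replicates 1 and 2 and 19928 and 11108 in Venus positive libraries 3 and 4. Both Venus positive libraries lay above both double negative replicates by more than either pair differed (gap of 1.26 on the log2 scale, against at most 0.84 within a group). Its log2 fold change of 2.01 (standard error 0.48, adjusted p = 0.00127 from edgeR) ranged from 1.52 to 2.37 when each library was left out in turn.

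The pioneer factor *foxa1* (30541), best known in endoderm, was sparse in double negative cells, with 79.7 and 206 normalized read counts in replicates 1 and 2. Venus positive libraries 3 and 4 had 450.0 and 607. The Venus positive libraries resembled each other (1.35-fold apart) while the double negative replicates differed 2.58-fold, and only 9.43% of the listed genes differed more between these replicates. The gap between the groups, 1.13 on the log2 scale, was narrower than this difference of 1.37. A log2 fold change of 1.89 (standard error 0.63, adjusted p = 0.00795 from edgeR) became 1.36 without double negative replicate 1, where the adjusted p was 0.0993, and 2.73 without replicate 2.

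*foxo1a* (768121) encodes a forkhead protein that insulin signalling keeps out of the nucleus. Its 143 and 138 normalized read counts in the double negative replicates were nearly equal, and Venus positive libraries 3 and 4 had 540.5 and 383. The gap between the groups (1.42 on the log2 scale) was the widest of the 5 higher genes and exceeded the difference within the Venus positive group (0.50). The log2 fold change of 1.72 (standard error 0.60, adjusted p = 0.0109 from edgeR) held its size when libraries were left out, from 1.45 to 1.94, although with a single double negative library the adjusted p was 0.0596 without replicate 1 and 0.063 without replicate 2.

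*tcf12* (407985) encodes an E protein, a widely expressed bHLH factor that pairs with tissue-specific bHLH partners such as Twist1. It had 1819 and 2825 normalized read counts in double negative replicates 1 and 2 and 7782 and 4908 in Venus positive libraries 3 and 4. The gap of 0.80 on the log2 scale was the narrowest of the 10 genes and only slightly wider than the difference within the Venus positive group (0.66). The log2 fold change was 1.45 (standard error 0.46, adjusted p = 0.00658 from edgeR), and the call was lost without double negative replicate 1 (1.17, adjusted p = 0.11) and without Venus positive library 3 (1.08, adjusted p = 0.0584).

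Some of these genes changed sign when the listed genes alone set the scaling. When the libraries were scaled over the listed genes alone with the RLE (relative log expression) method of DESeq2, the median log2 fold change of the table moved by -1.85 and the calls turned from 484 higher and 270 lower to 72 higher and 270 lower. Under it *eya2*, *foxp4* and *foxa1* had log2 fold changes of 0.35, 0.12 and 0.12, and *foxo1a* and *tcf12* changed sign. None of the 5 higher genes was called by edgeR, and 0 had an unadjusted p under 0.05, while the 5 lower genes kept their calls. This scaling places the middle of a list that is mostly higher genes at no change, so it shows where a gene stands within the list: the 5 higher genes lay near the middle of it.

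**Figure D2:**
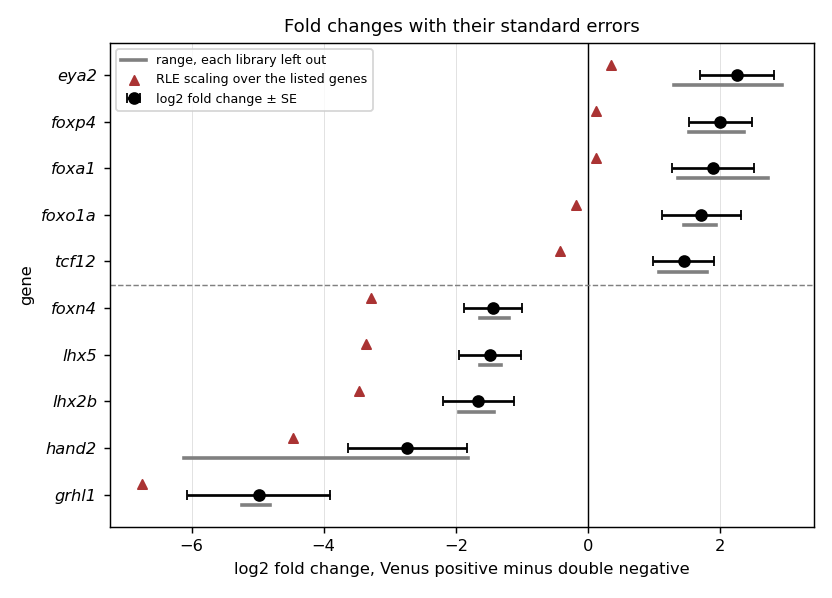
Log2 fold changes of the 10 genes, Venus positive minus double negative, with their standard errors (black), the range when each library was left out (grey bars) and the value with RLE scaling over the listed genes (red triangles). The grey bar of *hand2* runs from -6.12 to -1.82, and the red triangles of *foxo1a* and *tcf12* lie below 0.

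Genes of the nervous system made up 3 of the 5 that were lower, and they fell by similar amounts. *foxn4* (30315), a forkhead gene of retinal progenitors and spinal interneuron precursors, had 2761 and 3752 normalized read counts in double negative replicates 1 and 2 and 1199 and 1208 in Venus positive libraries 3 and 4. *lhx5* (30465), a LIM homeodomain gene of the developing forebrain, had 1287 and 1029 in the double negative replicates and 419.8 and 408 in the Venus positive libraries. The Venus positive libraries were nearly equal for both genes (1.01-fold and 1.03-fold apart), and the gap between the groups (1.19 and 1.29 on the log2 scale) was wider than the difference between the double negative replicates (0.44 and 0.32).

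A second LIM homeodomain gene, *lhx2b* (791744), mutated in the belladonna line with misrouted retinal axons, had 579 and 747 normalized read counts in double negative replicates 1 and 2 against 171 and 248 in Venus positive libraries 3 and 4. Its groups were also separated by more (1.22 on the log2 scale) than either pair of libraries differed (at most 0.54). The log2 fold changes were -1.44 for *foxn4* (standard error 0.44), -1.48 for *lhx5* (standard error 0.47) and -1.66 for *lhx2b* (standard error 0.53). In edgeR their adjusted p-values were 0.00537, 0.00647 and 0.00689. Without double negative replicate 2 the adjusted p was 0.0642 for *foxn4* and 0.0763 for *lhx2b*, without Venus positive library 3 it was 0.0535 for *lhx2b*, and without double negative replicate 1 it was 0.0609 for *lhx5*. The values themselves stayed between -1.96 and -1.20 in every one of these fits.

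Reads of these neural genes remained in the Venus positive cells at 2.71-fold to 3.17-fold lower mean counts. In these bulk libraries fewer cells of a type and less RNA per cell cannot be told apart. Of 36 other transcription factors of neural development, *pou3f1* and *insm1a* were listed, both lower, with log2 fold changes of -1.59 and -1.46, close to those of *foxn4*, *lhx5* and *lhx2b*. None of 20 neuronal and 18 neural progenitor markers was listed in the table.

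*hand2* (58150), a bHLH gene of the heart and of pharyngeal arch mesenchyme, behaved differently in the 2 Venus positive libraries. Double negative replicates 1 and 2 had 488 and 401 normalized read counts, Venus positive library 4 had 126 and library 3 had 6.28, from 5 reads. The Venus positive libraries thus differed 20.0-fold, and of the 653 genes with reads in both, only 0.459% differed more. Library 4 alone was 1.67 on the log2 scale below the nearest double negative replicate, a narrower distance than the 4.32 between the Venus positive libraries. The log2 fold change was -2.73 (standard error 0.91, adjusted p = 0.00808 from edgeR), but -1.82 without library 3 and -6.12 without library 4, so its size rests on which Venus positive library is used.

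The summed normalized read count of the 20 listed epidermis and epithelium markers was 48486 in library 3 and 75148 in library 4, a 1.55-fold difference. The keratin *krt4* of the surface epithelium had 17501 and 44718.5, and the sums without it were 30985 and 30429.8. These near-equal sums hold opposite changes: *krtt1c19e* had 1722 and 4688, and *krt18* had 16687 and 14883. Of the 20 markers 8 were higher and 12 lower in library 4. The sum of the 14 listed erythrocyte markers was 0.73 times as high in library 4 as in library 3 (4701 and 3417). The 16 listed mesenchyme and fibroblast markers summed to 74560 and 58033. Their part in the difference for *hand2* was not tested.

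*grhl1* (324942) belongs to the Grainyhead-like genes, which act in epidermal differentiation. It had 46.8 and 57.3 normalized read counts in double negative replicates 1 and 2 and 1.26 and 1.74 in Venus positive libraries 3 and 4, from 57, 56, 1 and 2 reads. The level was 33.4 times as high in double negative cells (95% exact interval 11.2 to 165, counting error only). The gene was selected for this contrast and passed the count filter through the double negative libraries alone. The interval therefore gives the size of the decrease and is no test of it. The fitted log2 fold change of -4.98 (standard error 1.08, adjusted p = 0.000669 from edgeR) rests on these few reads. Without each library in turn the log2 fold change was between -5.24 and -4.82. DESeq2 with the same size factors gave -5.10, and other prior counts of the edgeR fit were not tried.

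Epithelial and blood markers moved the same way as *grhl1*. Of 36 epidermis and epithelium markers 20 were listed, 18 lower and 2 (*krt94* and *krt18*) higher, *krt18* changing sign with RLE scaling. Normalized read counts of the 20 summed to 404791 and 337069 in double negative replicates 1 and 2 against 48486 and 75148 in the Venus positive libraries. Much of these sums was *krt4* alone, with 283412 and 178065 against 17501 and 44718.5. Of 23 erythrocyte markers 14 were listed and all 14 were lower, from sums of 180090 and 329142 to 4701 and 3417, with *hbae5* and *rhd* at 0 in both Venus positive libraries. The part of these cell types in the fall of the 5 lower genes was not tested.

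Across all 10 genes, the 2 libraries of a group differed about as much as for the rest of the table. The median absolute log2 ratio was 0.41 between the double negative replicates and 0.52 between the Venus positive libraries, against 0.56 and 0.61 over the listed genes with reads in both libraries. More than 2-fold differences occurred in *eya2* and *foxa1* between the double negative replicates and in *eya2* and *hand2* between the Venus positive libraries, which is 20% of the genes in each case, against 21.8% and 28.5% of the listed genes. The gap between the groups was wider than both differences within groups for 7 of the 10 genes (70%, against 83.4% of the 639 listed genes with reads in all libraries), the exceptions being *eya2*, *foxa1* and *hand2*.

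The direction of these differences followed the table. Venus positive library 3 was above library 4 for 4 of the 5 higher genes, the exception being *foxa1*, and library 4 was above library 3 for 4 of the 5 lower genes, the exception being *lhx5*. Over the table, library 4 was the higher of the pair for 29.7% of the 485 higher genes and for 58.3% of the 168 lower genes with reads in both. Double negative replicate 2 was above replicate 1 for 4 of the 5 higher genes, the exception being *foxo1a*, against 69.0% over the table.

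**Figure D3:**
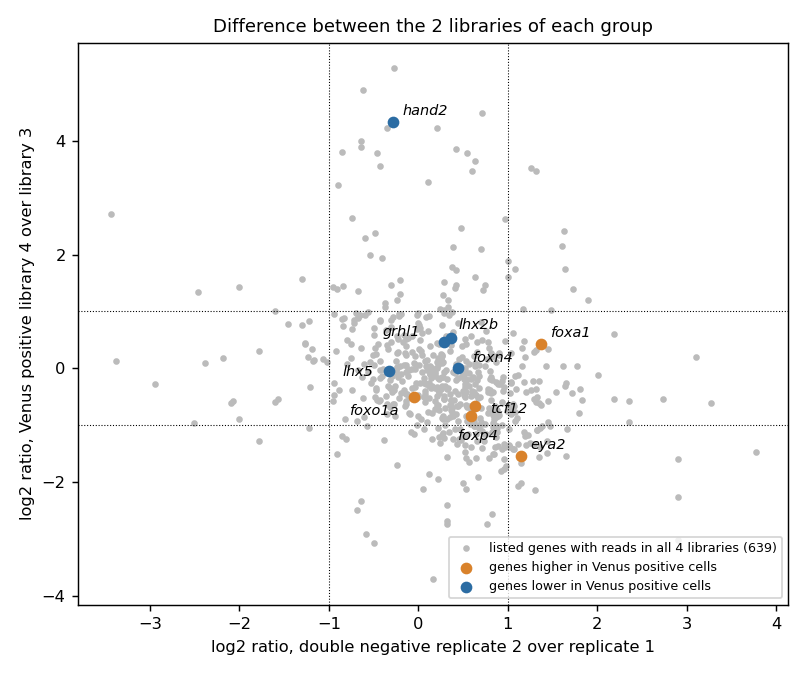
Log2 ratio between the double negative replicates (horizontal axis) and between the Venus positive libraries (vertical axis) for the 639 listed genes with reads in all libraries (grey) and the 10 genes (orange higher, blue lower in Venus positive cells). Dotted lines mark 2-fold differences. *hand2* stands at 4.32 on the vertical axis, and *eya2* (1.15 and -1.54) is beyond 2-fold on both.

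Levels of different genes can be compared only per length. For this the authors' group means of TPM were used, a transcript abundance scaled by length and library size, with no SD or n. In Venus positive cells the order was *eya2* (246 TPM), *foxp4* (235), *tcf12* (170.3), *foxn4* (57.9), *lhx5* (42.8), *foxa1* (35.6), *foxo1a* (8.35), *lhx2b* (8.02), *hand2* (5.79) and *grhl1* (0.06). The lower genes *foxn4* and *lhx5* thus stood above the higher genes *foxa1* and *foxo1a* in the mean of the Venus positive group. In double negative cells *foxn4* led with 136 TPM, followed by *lhx5* (104), *foxp4* (62.4), *tcf12* (55.2), *eya2* (46.2), *hand2* (31.8), *lhx2b* (23.2), *foxa1* (7.92), *foxo1a* (2.31) and *grhl1* (1.22). Neighbours in these orders were not tested against each other.

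The 5 higher genes had a median of 170.3 TPM in Venus positive cells, against 37.3 TPM over the 485 higher genes of the table. The 5 lower genes had a median of 31.8 TPM in double negative cells, against 13.4 over the 271 lower genes. In Venus positive cells these 5 still had a median of 8.02 TPM, against 0.77 over the 271. TPM and normalized read counts gave the same direction for all 10 genes. For *grhl1* the fold in TPM was 20.3, from means of 1.22 and 0.06.

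**Figure D4:**
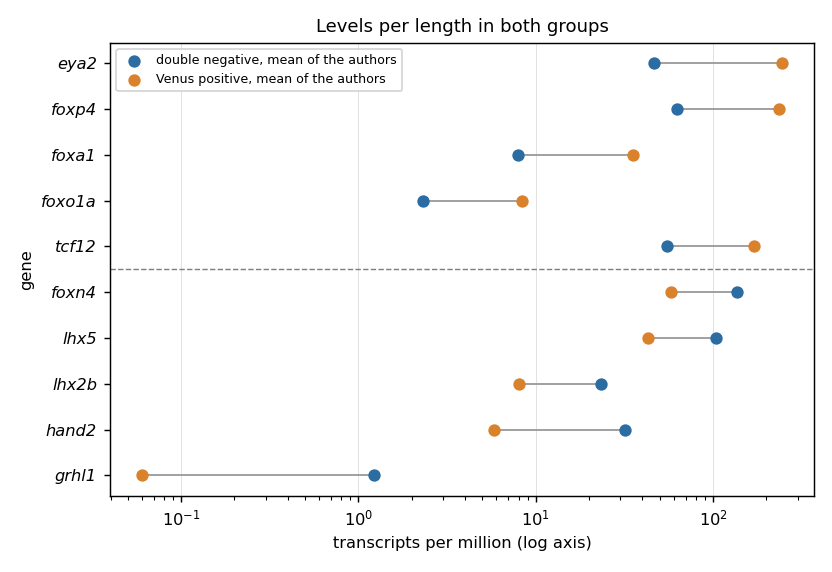
TPM (log axis), the authors' mean of each group, for the 10 genes, with double negative cells in blue and Venus positive cells in orange. Among them the 3 most abundant in Venus positive cells, *eya2*, *foxp4* and *tcf12*, stand at 170.3 to 246 TPM, and *foxn4* and *lhx5* remain at 57.9 and 42.8 TPM there.

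The share of these families that was listed lay near that of all protein-coding genes. Counts for single families are small, and differences between families were not tested. The RefSeq annotation of a different assembly, GRCz12tu, served for names and gene order only. It holds 404 protein-coding genes whose symbols start like those of 30 families, and 14 of them (3.47%) were listed, against 2.72% of all 27039 protein-coding genes. Symbols can also match genes that are no transcription factors. The forkhead genes had the most listed, 5 of 65 (*foxp4*, *foxa1*, *foxo1a*, *foxn4* and *foxc1a*), of which *foxn4* alone was lower, joined by *foxo1a* and *foxc1a* with RLE scaling over the listed genes. Both listed genes with an *lhx* symbol, *lhx5* and *lhx2b*, of 11 such genes, were lower. The single Hand gene was listed, as were 1 of 4 Eya and 1 of 4 Grainyhead-like genes.

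For 21 of the 30 families no gene with a matching symbol was listed, among them *hox* (49 genes), *tbx* (21), *pax* (18) and *nkx* (17). With 2.72% of all protein-coding genes listed, families of such sizes can have none, so nothing is read from this. Genes of these kinds under other symbols fall outside the name rule. After their values were seen, the LIM homeodomain genes *lmx1ba* and *lmx1bb* were noted in the table, both higher (log2 fold changes of 3.02 and 1.62), as were the Ets gene *elk3* (1.68) and the nuclear receptor gene *rxraa* (1.91). With RLE scaling over the listed genes *lmx1bb* and *elk3* changed sign and none of these 4 genes was called by edgeR. A gene outside the table has no value here, which does not show equal levels. Close relatives of the 10 genes, 31 in all, were not listed either. Among them were *eya1*, *eya3*, *eya4*, *foxa*, *foxa2*, *foxa3*, *lhx2a*, *lhx9* and the duplicate *foxo1b*. With 2.72% of all protein-coding genes listed, their absence shows nothing particular to these relatives.

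The 4 genes of the same families that the rule leaves out were split as well. *foxc1a*, *six1a* and *zic4*, genes of cranial mesenchyme and the dorsal brain, had log2 fold changes of 1.79, 1.73 and 1.71, within the range of the 5 higher genes, and all 3 changed sign with RLE scaling. The neural crest gene *sox10* had 319 and 209 normalized read counts in double negative cells and 56.6 and 59.9 in Venus positive cells (log2 fold change -2.18).

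Other developmental transcription factors were counted from lists chosen with earlier results of these data known, which do not hold every such gene of the table. Of 36 factors of mesenchyme 12 were listed and all 12 were higher, against 64.2% of the whole table. Among them were the bHLH genes *twist1a*, *twist2* and *twist3*. Their median log2 fold change was 2.19 (12 above 0 but 2 called with RLE scaling, *twist3* and *mkxa*). This list does not hold *hand2*, a gene of pharyngeal arch mesenchyme that was lower (-2.73). Of these 12, *twist3* had the largest increase, from 116 and 297 normalized read counts in double negative replicates 1 and 2 to 3274 and 1579 in Venus positive libraries 3 and 4, with a log2 fold change of 3.56 and a standard error of 0.58. Next among the 12 were *mkxa* (3.18), a tendon homeobox gene, *msx3* (2.80) and *msx1b* (2.60). A gene outside the list, *msx2b*, had 3.31 and was noted after its value was seen.

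Of 20 erythroid factors *gata1a*, *klf1* and *gfi1b* were listed, all lower, with 1 read of *klf1* as their only read in the Venus positive libraries. The muscle factor *myf5* was at 0 in both Venus positive libraries and at 41.1 and 29.7 normalized read counts in double negative cells. None of 17 other epithelial factors, *tp63* included, was in the table beside *grhl1*.

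Within 3 protein-coding genes on either side in the RefSeq order, a listed gene was found for *lhx2b* (*fut9b*), *tcf12* (*cgnl1*) and *foxo1a* (*LOC100334706*), which is 3 of 10 genes, close to the background of 23.5% of the 736 listed genes with a position.

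The sort itself can be read from *apln*, with 651 and 802 normalized read counts in double negative replicates 1 and 2 and 11006 and 8899 in Venus positive libraries 3 and 4. Reads of the listed genes totalled between 876579 and 1175560 in a library, which is not its depth. Relative depth, recovered from the FPKM columns, was 1, 0.879, 0.713 and 0.908 for double negative replicates 1 and 2 and Venus positive libraries 3 and 4. Of the marker lists not given above, mesenchyme and fibroblast markers were higher (16 of 29 listed, all 16 higher, with *mmp2* turning with RLE scaling, summed normalized read counts of 11794 and 15325 in double negative and 74560 and 58033 in Venus positive cells). Neural crest and pigment markers were mostly lower (5 of 20 listed, 4 lower and *xdh* higher, 4315 and 4013 against 1278 and 1524). Of 26 muscle markers *actc1a*, *ttn.1* and *ttn.2* were listed and higher, *actc1a* turning with RLE scaling, and of 14 sensory markers *otomp* was listed and lower. None of 23 endothelial, 20 cartilage and bone and 13 immune markers was listed.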

How the data were processed

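The 2 libraries from each gate were analysed from 1 deposited table of 756 genes. Per the methods, reads were filtered with SOAPnuke and mapped with HISAT2 to GRCz11, then aligned with Bowtie2 to the genes for quantification by RSEM, and DESeq2 compared the groups. Versions in the submitters' processing notes are 2.0.4 for HISAT2, 2.4.4 for Bowtie2 and 1.2.28 for RSEM. The authors deposited expected counts (RSEM estimates) per library, normalized counts (a signal: the count over a size factor), TPM and FPKM. Their group means of TPM and FPKM were used as they stand. The deposited Q values (adjusted p-values) were read only to test the selection: all 756 lie under 0.05. The authors' fold changes, p-values and Q values (22 columns in all) had no other use. Also left aside were 8 columns with per-library values and 5 with group averages. The Venus positive libraries are 3 and 4 in the table but 1 and 2 in the labels, so their count columns entered by group only.

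Counts were raised to whole numbers, which gives back the authors' normalized counts. Double negative replicates 1 and 2 had size factors of 1.22 and 0.978, from the matched columns, and Venus positive libraries 3 and 4 of 0.796 and 1.15, from the normalized counts of 7 genes in the study's source data. Groups were compared with edgeR 4.0.16 (R 4.3.3), in a two-sided quasi-likelihood test with group as the only term and a threshold of 0.05 on the Benjamini-Hochberg adjusted p. It covered 754 genes that reached 10 counts in 2 or more libraries, and 2 genes fell under this minimum. The biological coefficient of variation was 0.417. The test was tried on simulated counts. Alternatives were RLE and TMM scaling over the table, DESeq2 1.42.0, no filter, rounding to the nearest number and leaving out each library. Scaling by relative depth, recovered from counts and FPKM of 296 genes above 5 FPKM, was added after seeing the data. The interval for *grhl1* is an exact binomial interval on summed reads (scipy 1.17.1). Total reads per library are not given here.

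All 10 genes described were named by rule (1 further gene found by it is not reported here), and their NCBI gene IDs and symbols all matched RefSeq. The genes and the marker lists, matched by exact symbol, were chosen with earlier results of these data known, and some markers are genes the study named from these libraries. Paralogues with similar sequence can share reads, which was not tested.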

Additional observations from a re-analysis of the deposited data

How the results depend on the processing

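Relative to 484 higher and 270 lower genes of the table and 5 higher and 5 lower of the 10 genes, RLE scaling over the listed genes left 72 higher genes and TMM scaling 84, with 270 lower in both, and in both 0 of the 5 higher genes were called by edgeR, with 0 at an unadjusted p under 0.05. Log2 fold changes that turned were those of *foxo1a* (-0.18 with RLE and -0.0802 with TMM) and *tcf12* (-0.43 and -0.31). Both scalings set the middle of a list of selected genes to no change (median shift -1.85 and -1.75). Leaving out each library gave 2 to 5 higher and 3 to 5 lower calls among the 10 genes, lowest without double negative replicate 1 (2 higher: *eya2* and *foxp4*) and without double negative replicate 2 (3 lower: *lhx5*, *hand2* and *grhl1*). Over the whole table calls were also lost in every one of these fits. In the fits without double negative replicate 1, without replicate 2 and without Venus positive library 3, the 10 genes lost the larger share. In the fit without library 4 the table lost the larger share. Whether the shares of the 10 genes and of the table differ was not tested. A group reduced to 1 library is assumed to vary like the other group, so p-values of such fits rest on that assumption. No direction changed with DESeq2, without the filter, with other rounding or with scaling by relative depth, which was chosen after seeing the data. Each of these 4 called all 10 genes, and also every gene tested. With RLE scaling the median absolute log2 ratio between libraries was 0.34 in double negative and 0.64 in Venus positive cells (0.41 and 0.52 otherwise). No paired analysis was possible because the count columns of the Venus positive libraries carry other numbers than the labels. The 3 reads of *grhl1* and the 5 reads of *hand2* in library 3 limit how far their decreases can be sized.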
